A study of Mus musculus with 20 samples.

Results

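Solute carriers are the membrane proteins that move amino acids, sugars, ions, metals, nucleosides and vitamins across the plasma membrane and the membranes of organelles, and each numbered SLC family shares a protein fold and, broadly, a kind of substrate. The genes described here were chosen from the study's count table by 2 rules: a symbol of the form Slc, a family number, the letter a and a member number, and at least 1000 counts summed over all 20 libraries. Of 329 symbols of that form, 167 met the count rule, out of 22068 symbols in the table, and 162 did not. The rule used measured levels, so the presence of these genes in the libraries is a description and not a result. The members just inside the threshold were Slc15a3 with 1075 counts, Slc4a10 with 1101 and Slc22a23 with 1102. The genes just outside it were Slc28a3 with 974 counts, Slc26a1 with 965 and Slc22a2 with 944. In 16 of the 167 members at least 1 group held fewer than 200 counts over its 4 libraries. Of the members, 14 would fall under 1000 counts without their highest group. Their differences from that group are tied to how they were chosen, so those named below are described without a p-value, though counts of calls include them. The symbol pattern also took in 3 genes that do not encode carriers, the scaffold Slc9a3r1, the nuclear factor Slc7a6os and the adaptor Slc4a1ap, as well as Slc3a2, the heavy chain that partners several amino acid exchangers.

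The libraries were poly(A) RNA-seq of CD4+ T cells sorted from the spleen and lymph nodes of C57BL/6 mice that carry a Foxp3-GFP reporter, aged 8 to 12 weeks, with males and females pooled according to the labels. There were 5 groups of 4 libraries. Regulatory T cells (Treg) were sorted as Foxp3-GFP+ cells. Rested CD5hi and rested CD5lo cells were naive cells kept for 22 h with interleukin-7 at 10 ng/mL, and fresh CD5hi and fresh CD5lo cells were the same kinds of naive cell taken without culture. All naive groups were TCRβ+, CD4+, CD8-, CD44- and Foxp3-GFP-, and CD5hi and CD5lo were the highest and the lowest 15% of these cells for surface CD5. The cell type field of the labels opens by naming CD5lo naive cells for every group, Treg and CD5hi included, so the groups here follow the titles and the sort gates. CD5 is a receptor that dampens signals from the T cell receptor, and its level on a naive cell is known to track the strength of the self-peptide signals the cell receives. The rested and the fresh groups differ in culture and in interleukin-7 together, so these cannot be told apart.

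Naive T cells are known to take up few nutrients, to depend on interleukin-7 for the upkeep of glucose uptake and survival, and to raise amino acid and glucose carriers after activation. Regulatory T cells are a more activated population whose metabolism differs from that of naive cells. Zinc is handled by a pair of families with opposite roles, the ZIP carriers (Slc39), which bring zinc into the cytosol, and the ZnT carriers (Slc30), which move it out of the cytosol into vesicles or out of the cell.

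Each library held between 38211406 and 64477566 counts. The 167 members took 0.870% ± 0.0264 of the counts in Treg, 0.904% ± 0.0559 in rested CD5hi, 0.905% ± 0.0322 in rested CD5lo, 0.8289% ± 0.00719 in fresh CD5hi and 0.844% ± 0.0100 in fresh CD5lo (SD, n = 4 each). Against the labels' statement of pooled sexes, all fresh libraries and replicate 3 of the Treg and of both rested groups held Y-linked counts, and replicates 1, 2 and 4 of these 3 groups held Xist in place of them. The comparisons of rested or Treg cells with fresh cells therefore differ in sex as well. With sex as a term in the fit, 93 of 105 calls were kept for Treg against fresh CD5hi and 95 of 105 against fresh CD5lo. For rest, 83 of 94 were kept in CD5hi and 90 of 100 in CD5lo cells. In that fit replicate 3 alone separates sex from group. A fit of the libraries with Y-linked counts leaves 1 library in each Treg and rested group, so it has no spread within them. The 6 markers of T cells in the table summed to between 2511 CPM and 4557 CPM in every library. Foxp3 averaged 722 CPM (counts relative to the TMM-scaled total of the library) in Treg, against 24.1 in fresh CD5hi and 22.4 in fresh CD5lo cells. Nothing in the labels says whether the 4 libraries of a group came from separate animals or pools, so the p-values measure the spread between these libraries only. In bulk RNA, fewer cells of a type and less RNA per cell cannot be told apart.

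Per kilobase of exon, the most abundant member was Slc25a5, the main ADP/ATP carrier of the inner mitochondrial membrane, at 164 CPM per kb in Treg, 176 in rested CD5hi, 159 in rested CD5lo, 181 in fresh CD5hi and 161 in fresh CD5lo cells. The scaffold Slc9a3r1 followed at 162 CPM per kb in Treg, 136 in rested CD5hi, 131 in rested CD5lo, 133 in fresh CD5hi and 132 in fresh CD5lo cells. Among plasma membrane carriers, the glutamine carrier Slc1a5 stood at 73.1 CPM per kb in Treg, 72.7 in rested CD5hi, 62.9 in rested CD5lo, 66.7 in fresh CD5hi and 55.0 in fresh CD5lo cells. The glucose carrier Slc2a3 was lower on this scale, with 22.4 CPM per kb in Treg and 6.22 in fresh CD5lo cells. Slc30a4 had 4.5 CPM per kb in fresh CD5hi and 5.41 in fresh CD5lo cells, but 62.1 in rested CD5hi and 98.5 in rested CD5lo cells, which placed it among the most abundant members after rest. All other levels below are CPM, which are comparable between groups for 1 gene and not between genes.

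The first question is how naive cells that differ in CD5 differ in their carriers before culture. Fresh CD5hi cells showed 28 of 167 members changed against fresh CD5lo cells at an adjusted p under 0.05 in edgeR's quasi-likelihood test, 16 higher and 12 lower. That is 16.8% of the members, against 11.5% of all 13309 genes tested, of which 6.86% were higher and 4.59% lower. Of the members, 4 passed with a change of 2-fold or more, or 2.40% against 2.80% of all genes. The 4 were the monocarboxylate carrier family genes Slc16a5 and Slc16a3, the sodium-driven chloride/bicarbonate exchanger Slc4a8 and the neutral amino acid carrier Slc6a19. No class of carrier moved as a whole: 2 amino acid carriers were higher and 2 lower of 24, 3 mitochondrial carriers were higher and 3 lower of 36, and 3 sugar carriers were higher and none lower of 12.

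Slc16a5, which encodes MCT6, a member of the monocarboxylate carrier family that is known to carry drugs rather than lactate, had the largest fold difference among members above 5 CPM. It was at 43.3, 38.4, 40.6 and 41.8 CPM in the 4 fresh CD5hi libraries, against 187, 161, 164 and 174 CPM in the 4 fresh CD5lo libraries. After rest it was at 1.14, 1.97, 1.21 and 1.05 CPM in CD5hi, against 8.03, 7.10, 5.23 and 4.15 CPM in CD5lo libraries. The CD5hi libraries were lower than every CD5lo library in both states. The log2 fold change of CD5hi over CD5lo was -2.06 ± 0.15 (SE, edgeR adjusted p = 1.0e-09) in fresh cells and -2.17 ± 0.19 (edgeR adjusted p = 6.4e-08) in rested cells, so the level was 4.18 times lower in fresh and 4.56 times lower in rested CD5hi cells by the ratio of means.

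Slc4a8, which exchanges chloride for sodium and bicarbonate and so raises cytosolic pH, ran the other way. Its CPM were 23.2, 20.8, 23.3 and 21.8 in fresh CD5hi, against 8.67, 9.88, 10.2 and 9.76 in fresh CD5lo libraries. Rested cells had 10.8, 11.1, 9.84 and 14.8 CPM in CD5hi, against 5.29, 4.73, 5.11 and 4.48 CPM in CD5lo libraries. There was no overlap in either state, and the log2 fold changes were 1.21 ± 0.10 (SE, edgeR adjusted p = 2.1e-08) in fresh and 1.25 ± 0.11 (edgeR adjusted p = 6.2e-08) in rested cells. Slc16a3, which encodes the lactate exporter MCT4, was at 3.95, 4.71, 3.03 and 3.76 CPM in fresh CD5hi, against 1.12, 1.43, 1.29 and 1.28 CPM in fresh CD5lo libraries. The groups did not overlap and the log2 fold change was 1.59 ± 0.18 (edgeR adjusted p = 9.8e-07). In rested cells the groups overlapped, at 1.09 to 2.01 CPM in CD5hi and 0.623 to 1.09 CPM in CD5lo libraries, and the log2 fold change of 1.03 (edgeR adjusted p = 0.00159) no longer passed when the fit held the rested naive groups alone.

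Slc6a19, a sodium-coupled carrier of neutral amino acids best known from the gut and kidney, was detected chiefly in CD5lo cells. The 4 fresh CD5hi libraries held 10 counts in all, with CPM of 0, 0.0902, 0.0532 and 0.0499, against 180 counts and 0.833, 0.817, 0.665 and 0.991 CPM in the fresh CD5lo libraries. After rest the CPM were 0.477, 0.764, 0.681 and 0.983 in CD5hi, against 6.24, 7.23, 4.96 and 6.23 in CD5lo libraries, with 132 and 1192 counts. The CD5hi libraries stood below all CD5lo libraries in both states. The log2 fold change was -4.03 ± 0.47 (SE, edgeR adjusted p = 1.7e-06) in fresh cells, resting on few counts. In rested cells it was -3.07, given as a description because the gene met the count rule through the rested CD5lo libraries.

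**Figure D1:**
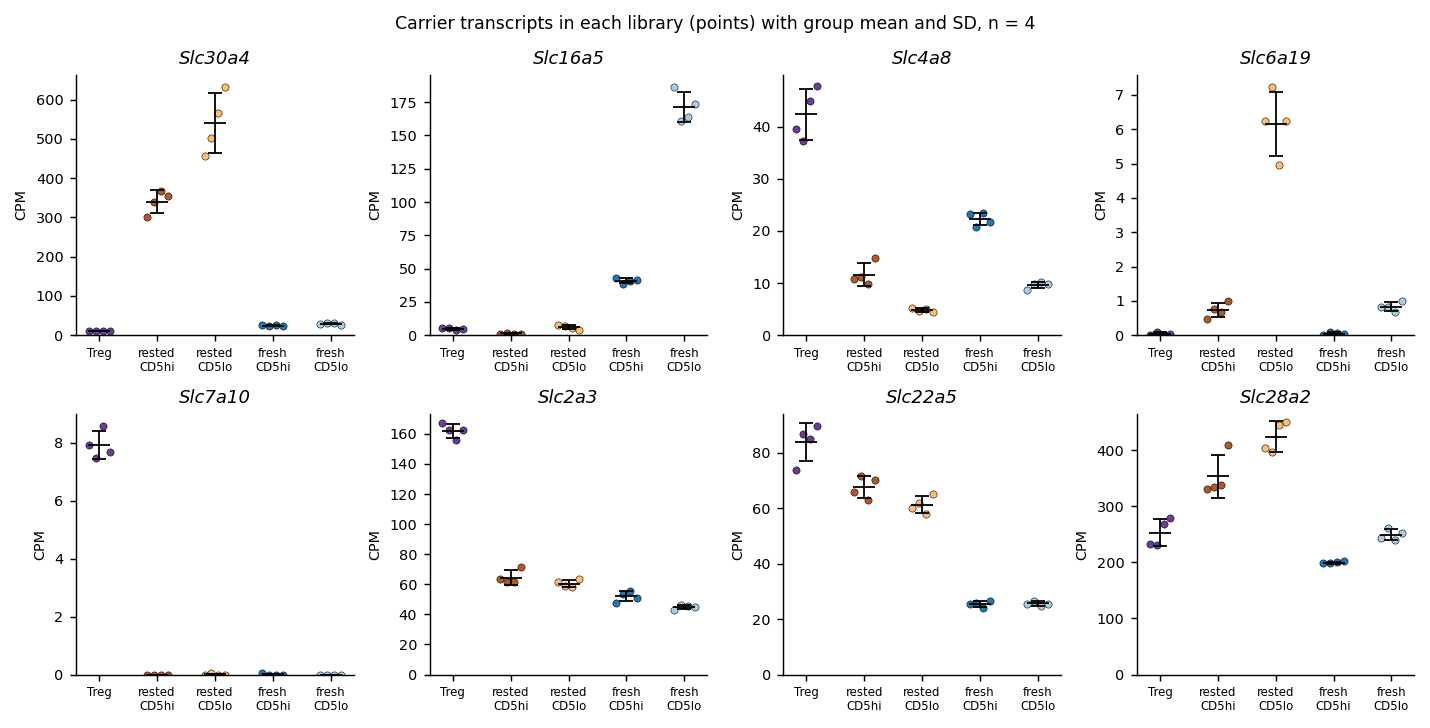
CPM of 8 carrier genes in each of the 20 libraries (points), with the mean and SD of each group of 4 (bars), on a linear axis for each gene and with the groups Treg, rested CD5hi, rested CD5lo, fresh CD5hi and fresh CD5lo from left to right. Slc30a4 lies between 301 and 633 CPM in rested cells and between 23.2 and 31.7 CPM in fresh cells, Slc16a5 is highest in fresh CD5lo cells, and Slc7a10 is seen in Treg.

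Smaller differences with CD5 that passed in both states included the amino acid carriers Slc38a1 and Slc1a5. Slc38a1, a sodium-coupled glutamine carrier, was at 227, 227, 230.1 and 205 CPM in fresh CD5hi, against 171, 177, 184 and 176 CPM in fresh CD5lo libraries. Slc1a5 was at 294, 252, 275 and 292 CPM in fresh CD5hi, against 232, 224, 216 and 245 CPM in fresh CD5lo libraries. Neither gene overlapped between the groups. The log2 fold change of Slc38a1 was 0.33 (edgeR adjusted p = 6.4e-04) in fresh and 0.29 (edgeR adjusted p = 0.00326) in rested cells. That of Slc1a5 was 0.28 (edgeR adjusted p = 5.6e-04) in fresh and 0.21 (edgeR adjusted p = 0.0123) in rested cells. The mitochondrial carriers split: Slc25a24, which exchanges ATP-magnesium for phosphate, was higher in CD5hi by a log2 of 0.42 in fresh and 0.44 in rested cells, whereas Slc25a4, another ADP/ATP carrier, was lower, at -0.28 in fresh and -0.38 in rested cells. All 4 of these values passed under edgeR.

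The other passing changes in fresh cells that held under every alternative included higher Slc26a11, a lysosomal sulphate and chloride carrier (log2 fold change 0.43), Slc25a45 (0.33) and Slc10a3 (0.30). Those lower in CD5hi included Slc16a10, which carries aromatic amino acids and thyroid hormone (-0.51), the phosphate carrier Slc20a1 (-0.42), the mitochondrial iron carrier Slc25a37 (-0.41), the potassium-chloride cotransporter Slc12a7 (-0.38) and the purine nucleoside carrier Slc28a2 (-0.32). A further 12 of the 28 lost their call when at least 1 library was left out. Slc30a4 was among them, at a log2 fold change of -0.27 (edgeR adjusted p = 0.0415), and passed without replicate 4 of fresh CD5lo but not without any other single library of these groups. The markers of natural killer and CD8 cells moved with CD5 too, and 3 of 5 tested were lower in CD5hi. Their summed level was 27.7 to 30.1 CPM in fresh CD5hi and 66.7 to 78.7 CPM in fresh CD5lo libraries. The sum was led by Prf1, with means of 20.7 and 41.4 CPM, and Cd8b1, with 7.71 and 31.1 CPM. Cd8a averaged only 0.524 and 0.949 CPM, and Ncr1 was at or near 0. The part of these cell types in these results was not tested.

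In rested cells 21 of the 167 members differed between CD5hi and CD5lo, 12 higher and 9 lower, which is 12.6% of the members against 8.20% of all genes tested, 4.74% higher and 3.46% lower. Counting those called in both states, 16 changed the same way, 10 higher and 6 lower, which is 76.2% of the rested and 57.1% of the fresh calls. These 2 comparisons share no library. The matching share over all genes is not given here, so whether this overlap is particular to the carriers was not tested. Slc25a33, a mitochondrial pyrimidine nucleotide carrier, passed in rested cells, with 5.70, 5.29, 5.36 and 4.89 CPM in CD5hi, against 2.12, 2.41, 2.91 and 2.83 CPM in CD5lo libraries. The groups stood apart, with a log2 fold change of 1.05 ± 0.13 (SE, edgeR adjusted p = 7.4e-06), while in fresh cells it was 0.28 (edgeR adjusted p = 0.203), and the difference between the states is tested below. Slc22a15, an organic zwitterion carrier, was 0.98 higher in CD5hi (edgeR adjusted p = 7.6e-04).

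**Figure D2:**
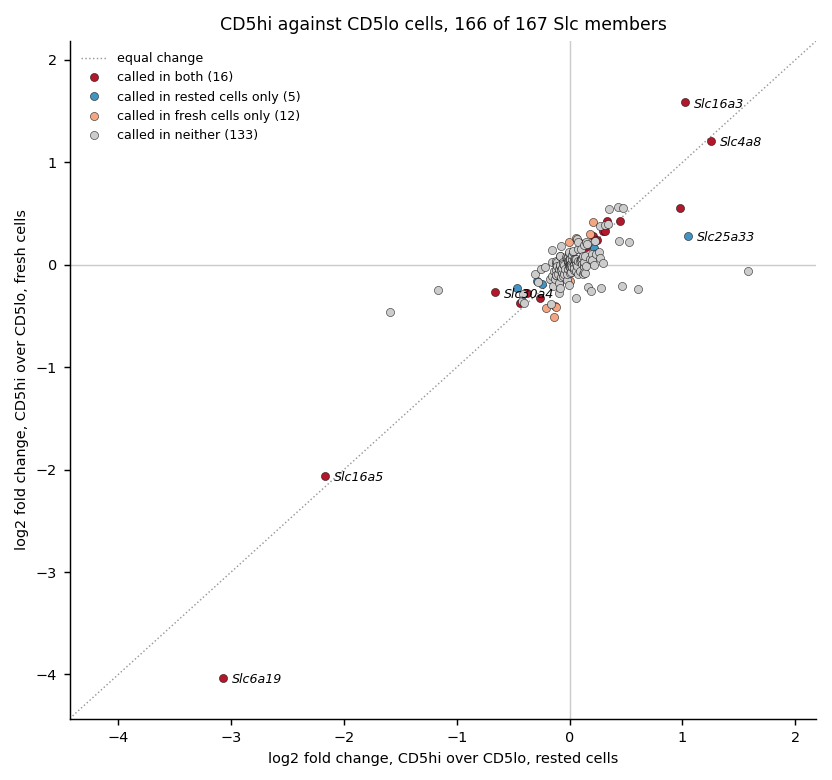
Log2 fold change of CD5hi over CD5lo for 166 of the 167 members, in rested cells (horizontal) and in fresh cells (vertical); each point is 1 gene and colours show in which states it passed. Slc7a10 is left out because both naive groups were at or under 3 counts. Slc16a5 and Slc6a19 lie far to the lower left and Slc4a8 and Slc16a3 to the upper right.

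Whether the CD5 difference itself changed with rest was tested as an interaction, the CD5hi over CD5lo log2 difference in rested cells minus that in fresh cells. No member passed edgeR's quasi-likelihood test after adjustment. Of all 13309 genes, 60 passed it, or 0.451%, with 0.113% above 0 and 0.338% below. An unadjusted p under 0.05 was seen in 15 of 167 members and in 848 of all genes. DESeq2 called 1 member, Slc25a33, with an interaction of 0.76 (DESeq2 adjusted p = 0.00708). Same-numbered libraries of CD5hi and CD5lo deviated together within each state, so the replicate number was also fitted as a block. The blocked fit called 5 members in the interaction, which were Slc30a4 at -0.39 (edgeR adjusted p = 0.00229), Slc7a1 at 0.21, Slc7a5 at 0.36, Slc25a33 at 0.76 and Slc16a10 at 0.37. With the block the comparison of CD5hi with CD5lo called 50 members in fresh cells, 25 higher and 25 lower, and 44 in rested cells, 23 higher and 21 lower. The same blocked fit called 21.9% of all genes in fresh cells, 18.5% in rested cells and 2.77% in the interaction. All of the 28 and the 21 calls above were kept in it. Among the added calls, the nucleoside carrier Slc29a1 was higher in CD5hi by 0.23 in fresh and by 0.22 in rested cells.

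Rest with interleukin-7 changed more of the carriers. Rested CD5hi cells showed 94 of 167 members changed against fresh CD5hi, 47 higher and 47 lower, or 56.3% of members against 52.4% of all genes tested, 26.2% higher and 26.2% lower. Rested CD5lo cells showed 100 changed against fresh CD5lo, 52 higher and 48 lower, or 59.9% against 54.3% of all genes, 26.9% higher and 27.3% lower. The share of members was thus near that of all genes in each case. Between these 2 comparisons, 81 members changed the same way, 40 higher and 41 lower, which is 86.2% of the CD5hi and 81.0% of the CD5lo calls. The 2 comparisons share no library but are not independent. Same-numbered CD5hi and CD5lo libraries deviated together within each state, and both comparisons carry the same difference in sex. The matching share over all genes is not given here, so whether this overlap is particular to the carriers was not tested. A change of 2-fold or more with a call was seen in 17 members in CD5hi cells, or 10.2% against 11.2% of all genes, and in 15 in CD5lo cells, or 8.98% against 11.8%. Of 18 zinc carriers, 9 were higher and 5 lower in CD5hi cells, and 8 higher and 5 lower in CD5lo cells.

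Slc30a4, which encodes ZnT4, a carrier that moves zinc from the cytosol into endosomes and vesicles, had the largest increase among members above 5 CPM in both rested groups. It was at 301, 339.8, 368 and 354 CPM in the rested CD5hi libraries, against 24.9, 24.7, 25.7 and 23.2 CPM in the fresh CD5hi libraries. In CD5lo cells it was at 457, 503, 567 and 633 CPM after rest, against 29.4, 30.7, 31.7 and 27.0 CPM when fresh. The rested libraries lay far above the fresh ones without overlap, including replicate 3, the rested library with Y-linked counts like the fresh ones. The log2 fold change was 3.79 ± 0.09 (SE, edgeR adjusted p = 4.4e-18) in CD5hi and 4.18 ± 0.09 (edgeR adjusted p = 7.4e-19) in CD5lo cells, a 13.8-fold and an 18.2-fold increase of the mean. After rest the level was lower in CD5hi than in CD5lo cells, by a log2 fold change of -0.66 ± 0.08 (edgeR adjusted p = 5.3e-06).

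The start of Slc30a4 is shown because its change with rest was the largest among the zinc carriers, and zinc-responsive genes are known to carry metal response elements bound by the factor MTF1. The 250 bases before its RefSeq start lie at chr2:122702664-122702913 on the minus strand of GRCm38.p6. The sequence runs 5′ to 3′ towards the start. The capitals mark matches, on either strand, to TGCNCNC, a loose form of the metal response core, or to the GC box GGGCGG. Matches that touch or overlap are joined.
Slc30a4: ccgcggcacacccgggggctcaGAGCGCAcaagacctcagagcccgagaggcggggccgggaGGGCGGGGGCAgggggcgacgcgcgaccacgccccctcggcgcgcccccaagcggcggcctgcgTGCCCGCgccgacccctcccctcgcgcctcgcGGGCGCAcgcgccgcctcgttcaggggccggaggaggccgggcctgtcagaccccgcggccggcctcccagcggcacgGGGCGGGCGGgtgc
This window held 4 matches to TGCNCNC and 3 GC boxes, and 1.45% of 17491 mouse promoter windows held at least as many matches to TGCNCNC. These letters allow any base at position 4, where the element bound by MTF1 is known to hold A or G. Some of the matches, such as TGCCCGC, therefore do not meet the stricter form. TGCNCNC is short and G+C-rich windows match it often. Of all promoters 46.0% held at least 1 match, as did 50.8% of the 126 members with a window and 9 of 15 zinc carriers. The other motifs searched, on both strands, were the E-box CACGTG, in 13.5% of member windows and 6.64% of all, the amino acid response core TGATGNAA, in 3.97% and 3.26%, the FOXO motif GTAAACA, in 0% and 2.58%, the ETS motif CCGGAAG, in 13.5% and 9.12%, and the NR4A motif AAAGGTCA, in 0% and 1.13%. The GC box was in 61.1% of member windows and 42.7% of all. These are matches of letters and not sites of binding.

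Other zinc carriers also changed with rest. Slc39a10, an importer of the plasma membrane, averaged 87.8 ± 4.53 CPM in rested and 45.1 ± 2.45 CPM in fresh CD5hi cells (SD, n = 4 each). Its log2 fold change was 0.96 (edgeR adjusted p = 7.6e-11) in CD5hi and 1.005 (edgeR adjusted p = 3.6e-11) in CD5lo cells. Slc39a4, the importer of dietary zinc in the gut, was low but 1.55 higher in CD5hi and 1.34 higher in CD5lo cells. Also higher were the importers Slc39a8, by 0.77 in CD5hi and 0.64 in CD5lo cells, and Slc39a6, by 0.33 and 0.28, and the Golgi carrier Slc30a7, by 0.52 and 0.48. Slc30a1, the exporter of the plasma membrane, was lower, at -0.76 in CD5hi and -0.72 in CD5lo cells, all as log2 fold changes that passed. Of 8 tested genes of zinc and iron handling outside the carriers, 2 were higher and 3 lower in each comparison; Mtf1 did not pass in either, and Mt1 was below 1 CPM in all groups.

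Slc22a5, which encodes the carnitine carrier OCTN2, was higher after rest. It was at 66.0, 71.7, 63.1 and 70.2 CPM in rested CD5hi, against 25.4, 26.0, 24.1 and 26.6 CPM in fresh CD5hi libraries. In CD5lo cells it was at 60.2, 62.1, 57.9 and 65.1 CPM after rest, against 25.6, 26.7, 24.9 and 25.5 CPM when fresh. The rested and the fresh libraries did not overlap, and the log2 fold changes were 1.41 ± 0.06 (SE, edgeR adjusted p = 6.7e-14) in CD5hi and 1.26 ± 0.06 (edgeR adjusted p = 4.6e-13) in CD5lo cells. The purine nucleoside carrier Slc28a2 was at 331, 335, 338 and 410.1 CPM in rested, against 198, 199, 200.1 and 202 CPM in fresh CD5hi libraries, a log2 fold change of 0.82 (edgeR adjusted p = 3.0e-09). Slc17a9, which loads ATP into vesicles, was higher by 1.18 in CD5hi and 1.13 in CD5lo cells. Its rested libraries were uneven, at 201, 203, 116 and 172 CPM in CD5hi and 200.04, 188, 127 and 129 CPM in CD5lo cells, yet all lay above the fresh ones.

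Among amino acid carriers, Slc38a2, a sodium-coupled carrier known to be induced by amino acid shortage, was higher after rest. It averaged 410.2 ± 35.2 CPM in rested and 241 ± 29.8 CPM in fresh CD5hi cells, and 438 ± 20.4 CPM in rested and 273 ± 38.9 CPM in fresh CD5lo cells (SD, n = 4 each). The log2 fold changes were 0.77 (edgeR adjusted p = 1.3e-06) and 0.68 (edgeR adjusted p = 5.6e-06). Slc6a19 was higher by 3.85 in CD5hi cells, and its log2 difference in CD5lo cells, a description only, was 2.90. The taurine carrier Slc6a6 was higher by 0.29 in each. In contrast Slc3a2 was lower, at -0.22 in CD5hi and -0.23 in CD5lo cells, though in CD5hi cells it was -0.13 and did not pass in the libraries with Y-linked counts alone, and its light chain Slc7a5 was lower in CD5lo cells, at -0.42 (edgeR adjusted p = 5.1e-04), while in CD5hi cells the value was -0.04 and did not pass. In all, 5 amino acid carriers were higher and 3 lower of 24 in CD5hi cells, and 6 higher and 5 lower in CD5lo cells. A list of 12 tested genes of the amino acid response had 5 higher and 5 lower in CD5hi cells and 4 higher and 6 lower in CD5lo cells, with Trib3 higher by 3.28 in CD5hi and 3.04 in CD5lo and Ddit4 lower, at -3.11 and -2.92.

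Sugar carriers changed in both directions. Slc2a3, the main glucose carrier of T cells besides Slc2a1, was higher after rest by a log2 of 0.31 in CD5hi and 0.42 in CD5lo cells. Of 12 sugar carriers, 3 were higher and 6 lower in CD5hi cells, and 3 higher and 5 lower in CD5lo cells. Slc45a4, of the proton-coupled sugar carrier family, was the most reduced, at -0.95 in CD5hi (edgeR adjusted p = 2.6e-10) and -0.72 in CD5lo cells (edgeR adjusted p = 1.8e-08). Slc16a5 was reduced more than any member but Slc40a1. From the libraries given above, its log2 fold change with rest was -4.91 ± 0.19 (SE, edgeR adjusted p = 5.9e-15) in CD5hi and -4.81 ± 0.17 (edgeR adjusted p = 1.4e-15) in CD5lo cells, a mean 30.5 times and 28 times lower. Slc4a8 was lower, at -0.94 in CD5hi and -0.98 in CD5lo cells. Slc41a3, a magnesium carrier, was lower, at -1.52 in CD5hi and -1.31 in CD5lo cells, the lysosomal carrier Slc46a3 at -1.05 and -0.98, and Slc16a10 at -0.90 and -1.27.

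The ion carriers changed in both directions, 9 higher and 9 lower of 24 in CD5hi cells and 11 higher and 10 lower in CD5lo cells. The sodium-bicarbonate cotransporter Slc4a7 was higher by 0.63 in CD5hi and 0.59 in CD5lo cells. The 36 mitochondrial carriers split into 11 higher and 8 lower in CD5hi cells and 12 higher and 8 lower in CD5lo cells. Slc25a27, of the uncoupling protein family, was higher by 1.01 in CD5hi and 0.73 in CD5lo cells, and the phosphate carrier Slc25a3 by 0.35 in each. The aspartate-glutamate carrier Slc25a12 was lower, at -0.60 in CD5hi and -0.64 in CD5lo cells, and Slc25a40, linked to mitochondrial glutathione, at -0.65 and -0.77. Slc26a10 was lower, at -1.28 in CD5hi and -1.16 in CD5lo cells, but its exons overlap those of B4galnt1 on the other strand, and since the strand used in counting is not stated their reads cannot be told apart.

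The iron exporter Slc40a1, which met the count rule through the fresh groups, was at 0, 0, 0 and 0.0223 CPM in rested CD5hi libraries, against 1.62, 2.37, 2.78 and 2.13 CPM in fresh CD5hi libraries. In CD5lo cells it was at 0, 0.0455, 0 and 0.0169 CPM after rest, against 1.84, 3.83, 3.21 and 1.71 CPM when fresh. The rested groups held 1 and 3 counts in all, so the size of the change is poorly known: the fresh to rested ratio was 402 in CD5hi (95% counting interval 71.8 to 15918) and 171 in CD5lo cells (58.3 to 832). Slc40a1 is a known gene of macrophages. Beside it, 12 of 13 tested myeloid markers were lower in rested cells of both kinds, with a summed level of 5.54 to 9.14 CPM in rested CD5hi and 5.8 to 8.24 CPM in rested CD5lo, against 23.0 to 30.1 CPM in fresh CD5hi and 24.3 to 35.0 CPM in fresh CD5lo libraries. C1qb, C1qc and Vcam1 were at 0 in all rested CD5hi libraries. Erythroid markers were lower as well, 6 of 7 tested in CD5hi and 7 of 7 in CD5lo cells, at 0.663 to 19.0 CPM in rested CD5hi and 0.659 to 12.5 in rested CD5lo, against 32.5 to 76.8 in fresh CD5hi and 51.9 to 113 in fresh CD5lo libraries. Hba-a1 and Hba-a2 had the same values in every group, as did Hbb-b1 and Hbb-b2. The markers of each pair are therefore not separate measurements in these counts and sums. B cell markers went the other way, with 5 of 6 tested higher after rest in CD5hi and 4 of 6 in CD5lo cells. They summed to 5.52 to 10.2 CPM in rested CD5hi and 5.15 to 9.94 CPM in rested CD5lo libraries. The fresh libraries had 3.42 to 5.22 CPM in CD5hi and 3.87 to 4.91 CPM in CD5lo. The part of these cell types in the change of Slc40a1 was not tested.

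**Figure D3:**
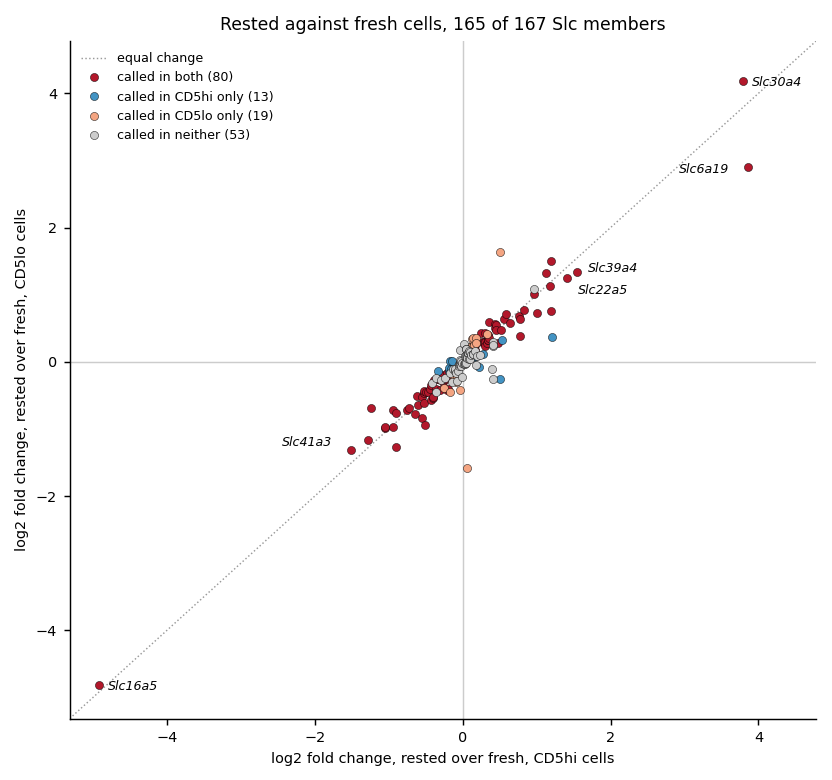
Log2 fold change of rested over fresh cells for 165 of the 167 members, in CD5hi (horizontal) and in CD5lo cells (vertical); each point is 1 gene and colours show in which comparison it passed. Slc7a10 and Slc40a1 are left out because their counts are at or near 0 in the rested groups. Slc30a4 lies alone at 3.79 and 4.18, and Slc16a5 at -4.91 and -4.81.

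Treg were compared with each fresh naive group. Both comparisons use the same 4 Treg libraries, so their results are not independent and are given side by side. Where a pair of values follows a gene below, the pair stands for the comparison with fresh CD5hi and then with fresh CD5lo. Against fresh CD5hi cells, 105 of 167 members differed, 56 higher and 49 lower, which is 62.9% of members and 54.2% of all genes tested, 27.5% higher and 26.6% lower. Against fresh CD5lo cells 105 differed, 54 higher and 51 lower, which is 62.9% against 58.5% of all genes, 29.2% higher and 29.4% lower. Changes of 2-fold or more with a call were seen in 28 members against CD5hi, or 16.8% against 16.6% of all genes, and in 33 against CD5lo cells, or 19.8% against 18.4%. The class of vitamin and cofactor carriers had 7 higher and 1 lower of 11 against CD5hi and 5 higher and 1 lower against CD5lo. This class also took in Slc22 family genes and Slc46a3, which are not known as vitamin carriers. Against CD5lo, those called higher were Slc22a5, Slc22a15, Slc22a17, Slc19a1 and Slc23a2. The 1 counted as lower was Slc22a23. That gene met the count rule through fresh CD5lo, so its difference is a description only. The mitochondrial carriers had 9 higher and 17 lower of 36 against CD5hi and 8 higher and 14 lower against CD5lo, and the zinc carriers 4 higher and 8 lower of 18 and 4 higher and 7 lower.

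Slc7a10, an exchanger of small neutral amino acids such as alanine, serine and glycine, was found almost wholly in Treg. It was at 7.93, 7.47, 8.57 and 7.70 CPM in Treg libraries, against 0.0432, 0, 0 and 0 CPM in fresh CD5hi and 0 CPM in every fresh CD5lo library. No rested CD5hi library held a count, and 1 rested CD5lo library was at 0.0455 CPM. The Treg libraries held 1639 counts, against 2 in fresh CD5hi, a ratio of 823 (95% counting interval 227 to 6798). Against the 0 counts of fresh CD5lo, with 3 counts over the group as the floor, the level in Treg was at least 576-fold higher. The gene met the count rule through Treg alone, so these values are a description. Without replicate 1 of fresh CD5hi, all remaining fresh libraries are at 0. Part of its exons overlaps those of Lrp3 on the other strand, a gene that averaged 0.168 CPM over all libraries. The part of Lrp3 in the reads of Slc7a10 was not tested.
The 250 bases before the RefSeq start of Slc7a10 are shown because the gene was at or near 0 in all naive groups; they lie at chr7:35186135-35186384 on the plus strand of GRCm38.p6, with the capitals as for Slc30a4.
Slc7a10: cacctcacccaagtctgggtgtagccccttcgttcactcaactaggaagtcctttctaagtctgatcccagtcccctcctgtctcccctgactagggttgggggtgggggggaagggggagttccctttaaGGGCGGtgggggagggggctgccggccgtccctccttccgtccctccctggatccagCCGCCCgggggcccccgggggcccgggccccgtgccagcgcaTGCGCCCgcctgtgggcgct
It held 1 metal response core and 2 GC boxes, and no match to the other motifs was found in these letters.

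Other amino acid carriers moved in both directions. Slc43a1, a carrier of large neutral amino acids, was at 5.50, 6.01, 5.85 and 5.99 CPM in Treg, against at most 0.259 CPM in any fresh CD5hi and 0.391 CPM in any fresh CD5lo library. It too met the count rule through Treg, and as a description the log2 difference was 5.34 against CD5hi and 4.87 against CD5lo, which was 5.52 without replicate 2 of fresh CD5lo. The same holds for the creatine carrier Slc6a8, at 1.46 and 1.20. Slc43a2, a relative of Slc43a1, was higher by 0.57 and 0.43. Slc38a2 was lower in Treg, at -0.53 against CD5hi and -0.71 against CD5lo, and the cationic amino acid carrier Slc7a1 at -0.45 and -0.54. Slc6a19, with 7 counts over the Treg libraries, was lower against CD5lo, at -4.50 (edgeR adjusted p = 9.4e-08), a value that moved to -5.77 without replicate 2 of Treg and to -8.41 in the libraries with Y-linked counts alone. Against CD5hi it was near 0 on both sides and did not pass. Of 24 amino acid carriers, 6 were higher and 6 lower against CD5hi, and 8 higher and 6 lower against CD5lo. In the amino acid response list, 5 of 12 genes were higher and 1 lower in each comparison.

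Of 12 sugar carriers, 6 were higher and 2 lower in Treg against CD5hi, and 5 higher and 1 lower against CD5lo. Slc2a3 was at 167, 163, 156 and 163 CPM in Treg, against 47.7, 53.8, 55.7 and 51.0 CPM in fresh CD5hi and 43.1, 46.4, 45.8 and 45.0 CPM in fresh CD5lo libraries. All Treg libraries lay above all naive ones, rested included, with a log2 fold change of 1.64 ± 0.06 (SE, edgeR adjusted p = 5.5e-16) against CD5hi and 1.85 ± 0.06 (edgeR adjusted p = 5.8e-17) against CD5lo, or 3.11-fold and 3.6-fold. Slc2a1, the other main glucose carrier of T cells, differed by 0.20 against CD5hi (edgeR adjusted p = 0.00621) and 0.24 against CD5lo (edgeR adjusted p = 0.00138), and was 0.13 and 0.17, neither passing, in the libraries with Y-linked counts alone, which hold 1 Treg library. The lactate exporter Slc16a3 was at 14.3, 13.6, 13.4 and 15.2 CPM in Treg, above every naive library, and was higher by 1.87 against CD5hi and 3.46 against CD5lo. Among regulators and enzymes of glucose use, 6 of 9 were higher and 1 lower in Treg against CD5hi, and 5 higher and none lower against CD5lo. Hk2, which traps glucose as its phosphate, was higher by 4.43 and 4.85, and Hif1a by 1.12 and 1.25.

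**Figure D4:**
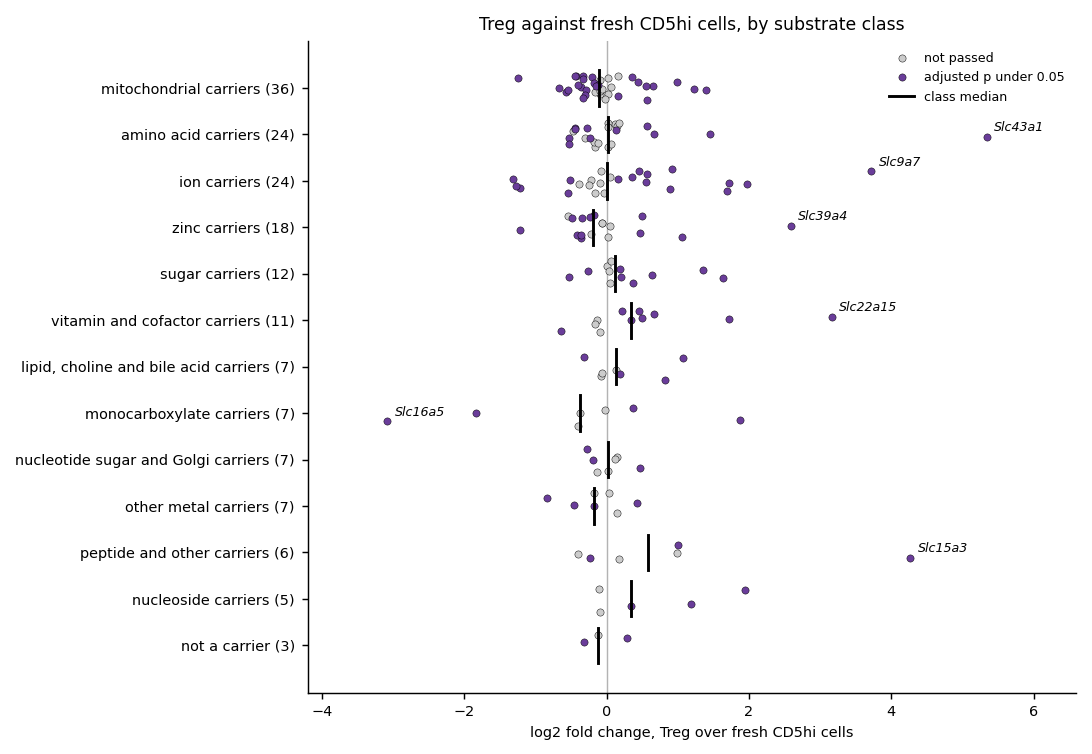
Log2 fold change of Treg over fresh CD5hi cells for the members (points), arranged in 13 classes by substrate, with the median of each class as a line and colour showing the genes that passed. Slc7a10, whose naive counts are at or near 0, is not drawn. The class of vitamin and cofactor carriers, which includes Slc22 family genes, has 7 points called higher and 1 called lower. Slc16a5 is the lowest point at -3.08.

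Several carriers of ions, organic zwitterions and metals were low in naive cells. Slc9a7, a sodium/proton exchanger of the trans-Golgi network, was at 23.1, 22.7, 20.1 and 24.9 CPM in Treg, against 1.47, 1.13, 1.93 and 2.28 CPM in fresh CD5hi and 1.79, 1.87, 1.70 and 1.46 CPM in fresh CD5lo libraries. Slc22a15 was at 25.3, 22.2, 25.8 and 26.3 CPM in Treg, against 2.24, 2.91, 3.23 and 2.73 CPM in fresh CD5hi and 1.83, 2.16, 2.04 and 1.54 CPM in fresh CD5lo libraries. Neither gene overlapped between Treg and naive libraries. Slc9a7 was higher by 3.72 ± 0.19 (SE, edgeR adjusted p = 4.1e-13) against CD5hi and 3.73 ± 0.19 (edgeR adjusted p = 2.9e-13) against CD5lo, and Slc22a15 by 3.16 ± 0.15 (edgeR adjusted p = 1.1e-13) and 3.72 ± 0.16 (edgeR adjusted p = 1.0e-14). The zinc importer Slc39a4 was higher by 2.59 and 2.83, and Slc39a13, a zinc carrier of the Golgi and vesicles, by 1.07 and 1.04. Over 215 bases the exons of Slc39a13 overlap those of Psmc3 on the other strand. Psmc3 averaged 118 CPM over all libraries and Slc39a13 15.6 CPM. The strand used in counting is not stated, so reads in the overlap cannot be told apart. Of the 6 ZnT carriers, those lower in both comparisons were Slc30a4 at -1.21 and -1.48, Slc30a5 at -0.36 and -0.44 and Slc30a7 at -0.41 and -0.35. Slc30a6 passed at -0.17 against CD5hi and did not pass at -0.16 against CD5lo, while Slc30a1 (-0.21 and -0.32) and Slc30a9 (-0.07 and -0.07) did not pass in either.

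Among ion carriers there were 11 higher and 5 lower of 24 against CD5hi and 10 higher and 7 lower against CD5lo. Slc4a8 was at 39.6, 37.1, 44.8 and 47.8 CPM in Treg, above all naive libraries, which gave 0.93 against CD5hi and 2.14 against CD5lo. Slc4a7 was higher by 1.69 and 1.57, the sodium-potassium-chloride cotransporter Slc12a2 by 0.89 and 1.03. The values of Slc12a8, which met the count rule through Treg, were 1.97 and 2.54. In contrast Slc12a7 was at 149, 151, 138 and 167 CPM in Treg, against 385, 368, 362 and 395 CPM in fresh CD5hi libraries, a log2 fold change of -1.32 (edgeR adjusted p = 2.2e-10) against CD5hi and -1.70 (edgeR adjusted p = 2.9e-12) against CD5lo. Slc20a1 was lower, at -1.22 and -1.64 and Slc26a11 at -1.27 and -0.84.

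Slc22a5 was higher in Treg by 1.72 (edgeR adjusted p = 1.1e-15) against CD5hi and by 1.71 (edgeR adjusted p = 7.5e-16) against CD5lo. The equilibrative nucleoside carrier Slc29a1 was higher by 1.19 and 1.42, and Slc43a3, a purine nucleobase carrier, by 1.94 and 2.17. The calcium-regulated ATP-magnesium carriers of mitochondria diverged: Slc25a24 was higher by 1.399 (edgeR adjusted p = 2.4e-14) against CD5hi and 1.82 (edgeR adjusted p = 2.6e-16) against CD5lo, while Slc25a23, the close relative, was lower, at -1.24 (edgeR adjusted p = 6.4e-15) and -1.39 (edgeR adjusted p = 6.5e-16). The carnitine-acylcarnitine carrier Slc25a20 was higher by 0.56 and 0.72 and the citrate carrier Slc25a1 by 0.65 and 0.64. Slc16a5 and Slc16a10 were lower, Slc16a5 at -3.08 and -5.14 and Slc16a10 at -1.83 and -2.35. Slc15a3, a lysosomal peptide carrier, had log2 differences of 4.27 and 4.21, but it met the count rule through Treg and lay just inside the threshold, its exons overlap Tmem132a, and it held 4.09 to 4.88 CPM in Treg libraries. B cell markers were higher in Treg too, 5 of 6, at a summed 23.4 to 25.3 CPM, against 3.42 to 5.22 CPM in fresh CD5hi and 3.87 to 4.91 CPM in fresh CD5lo libraries, led by Cd79b. Myeloid markers were lower, 9 of 13 in each comparison, at a summed 13.5 to 18.2 CPM in Treg, and erythroid markers too, 4 of 7 against CD5hi and 7 of 7 against CD5lo, at 1.498 to 32.4 CPM in Treg, beside the fresh ranges given above. The globin markers again come in pairs with the same values. Slc40a1 was at -0.83 and -1.08, as a description. The part of these cell types in the results was not tested.

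A fit with sex as a term changed the split of calls among the members. Against fresh CD5hi, the Treg calls were 50 higher and 54 lower with the sex term. Against fresh CD5lo they were 51 higher and 59 lower. For rest, the calls were 41 higher and 52 lower in CD5hi and 45 higher and 56 lower in CD5lo cells. The share of all genes called in this fit is not given here, so whether the shift is particular to the carriers was not tested. The fit of libraries with Y-linked counts alone leaves 1 rested or Treg library in each group.

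Slc15a2, a proton-coupled peptide carrier, did not pass in any comparison but varied the most between libraries of a group. In the order of replicates 1 to 4, it was at 64.1, 123, 21.6 and 111 CPM in Treg, 61.7, 98.2, 20.1 and 133 CPM in rested CD5hi and 66.0, 114, 23.9 and 111 CPM in rested CD5lo libraries. Fresh libraries had 70.3, 59.8, 23.3 and 7.49 CPM in CD5hi and 54.9, 60.6, 23.8 and 8.09 CPM in CD5lo. Libraries with the same replicate number in the same state had close values, and replicate 3 was low in all 5 groups. The Treg values also followed those of the rested groups by replicate number. Its coefficient of variation within groups, as the median over the groups, was 61.9%, the highest of 150 members with at least 5 CPM, where the next, Slc12a8, had 19.1% and the median was 6.72%.

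**Figure D5:**
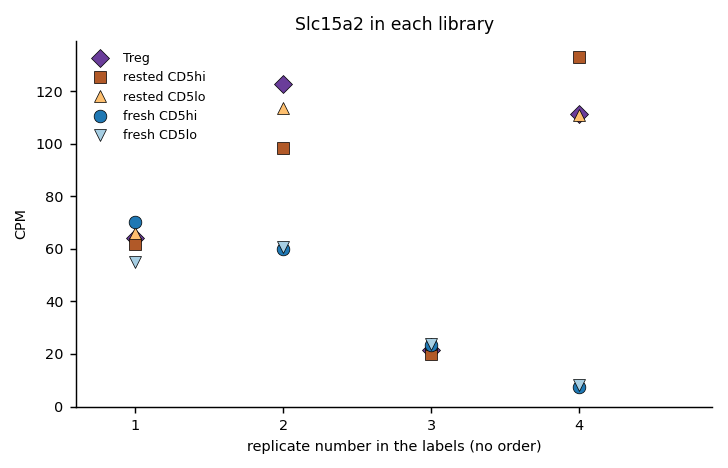
CPM of Slc15a2 in each library (vertical) by replicate number (horizontal), with a marker for each of the 5 groups. Replicate 3 lies between 20.1 and 23.9 CPM in every group, and replicate 4 lies at 111 to 133 CPM in Treg and rested cells and at 7.49 and 8.09 CPM in fresh cells.

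Carriers whose symbols do not follow the pattern were also counted. Of 34 tested, 12 were higher and 12 lower in Treg against CD5hi, and 12 higher and 7 lower against CD5lo. Of all genes, 27.5% were higher and 26.6% lower against CD5hi, and 29.2% higher and 29.4% lower against CD5lo. With rest, 5 were higher and 11 lower in CD5hi cells and 5 higher and 12 lower in CD5lo cells. The shares of all genes were 26.2% higher and 26.2% lower in CD5hi, and 26.9% higher and 27.3% lower in CD5lo cells. Slc35d1, a nucleotide sugar carrier, was higher in Treg by 2.05 and 2.06, and the organic anion carrier Slco4a1 was higher after rest by 2.01 in CD5hi and 2.29 in CD5lo cells.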

How the data were processed

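The authors deposited 1 table of raw read counts per gene symbol for 20 libraries. Per the submitters' processing notes, TopHat2 2.0.11, featureCounts 1.4.5 of Subread and edgeR were used with mm9; the strand setting is not given in the sources used here. Between 62.3% and 66.2% of the counts of 1 to 10 per gene and library were even; whether both mates of a pair were counted is not given in the sources used here. Counts were scaled with TMM in edgeR 4.0.16 (R 4.3.3, limma 3.58.1) and filtered with filterByExpr. A quasi-likelihood fit with 1 factor of 5 groups and 15 residual degrees of freedom was made over 13309 genes, and p-values were adjusted by Benjamini-Hochberg over all of them, with a threshold of 0.05. Standard errors come from the fold change and its F. CPM means are given with the SD over 4 libraries. Count intervals are exact at 95% and cover counting error only. The script was tested on simulated counts first. RefSeq promoters came from GRCm38.p6, and lengths from an annotation of another build than the counts, used per kilobase only; 126 members had a window.

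The members, classes and lists were chosen with earlier results of these data known. Named genes were, per comparison, the 8 largest rises and falls among called members without overlap and with at least 5 CPM, the 3 most counted of each class, the edge of the threshold, non-carriers and myeloid-linked members; others named for a class or pathway were chosen after their values were seen. Alternatives were DESeq2 1.42.0, RLE scaling, no filter, fits of the compared groups only, leaving out each library, a sex term, libraries of 1 kind of sex marker, and the replicate number as a block. Same-numbered CD5hi and CD5lo libraries deviated together, with correlations of 0.431 to 0.806 in fresh and 0.280 to 0.875 in rested cells, so the numbers pair the samples there. Between states, and between Treg and fresh cells, they did not in every pair. Between Treg and rested cells the correlations were 0.221 to 0.565 for CD5hi and -0.137 to 0.682 for CD5lo.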

Additional observations from a re-analysis of the deposited data

Results flagged for a closer look

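In 13 of 220 groups of 4 libraries, over 44 named genes, the highest or the lowest library stood further from the others than the Dixon test allows; chance flags about 1 in 20 groups. Replicate 3 of rested CD5hi, the library of that group with Y-linked counts, was low for Slc12a7 (385.1 CPM, the others 499.6 to 522.1), for Slc20a1 (181.2 CPM, the others 243.1 to 252.1), for Slc25a37 (64.76 CPM, the others 86.33 to 89.79) and for Slc25a40 (15.2 CPM, the others 21.21 to 21.39). Replicate 4 of rested CD5hi was high for Slc28a2, at 410.1 CPM against 330.9 to 337.8 in the others, and low for Slc25a24, at 13.59 CPM against 15.48 to 15.86.

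In Treg, Slc25a35 was at 4.91 CPM in replicate 2, where the others had 5.928 to 5.959, and Slc25a5 was at 248.4 CPM in replicate 4, where the others had 275.3 to 280.2. In fresh CD5hi, Slc38a1 was at 204.6 CPM in replicate 4, with 226.8 to 230.1 in the others, and Slc39a4 at 2.039 CPM in replicate 3, with 3.113 to 3.258 in the others. In fresh CD5lo, Slc17a9 was at 69.53 CPM in replicate 1, with 74.32 to 75.16 in the others. Slc7a10 was at 0.04549 CPM in replicate 2 of rested CD5lo and at 0.04315 CPM in replicate 1 of fresh CD5hi, with 0 in the other libraries of each group.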

How the results depend on the processing

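With the replicate number as a block within states, 50 members were called between fresh CD5hi and CD5lo cells, 44 between rested CD5hi and CD5lo cells and 5 in the interaction. In the rested groups alone, 10 differed with CD5. DESeq2 called 1 member in the interaction. Leaving out 1 library at a time gave 91 to 101 calls for Treg against fresh CD5hi, 98 to 105 for Treg against fresh CD5lo, 84 to 92 for rested against fresh CD5hi, 91 to 105 for rested against fresh CD5lo, 16 to 25 for rested and 20 to 26 for fresh CD5hi against CD5lo, and 0 to 1 for the interaction. The 1 was Slc7a5 without replicate 2 of fresh CD5lo (0.47) and Slc25a37 without replicate 3 of rested CD5hi (0.39). Of the calls, 16 of 28 between fresh and 10 of 21 between rested CD5hi and CD5lo cells held under every alternative, as did 65 of 94 for rest in CD5hi, 68 of 100 for rest in CD5lo, 75 of 105 for Treg against CD5hi and 80 of 105 for Treg against CD5lo. With Y-linked libraries only, rested over fresh CD5hi turned to -0.0018 for Slc11a2 and -0.1113 for Slc25a37; the cause was not tested. For single genes, 5652 values kept direction and call, 96 gained a call, 230 lost it and 2 turned. Counts of a few reads limit Slc7a10, Slc6a19 and Slc40a1.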
